A study of Xenopus laevis with 4 samples.

Results

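The integrated stress response is the programme by which cells slow protein synthesis and switch on stress genes. The genes described here were grouped under this name, although xbp1 belongs to a parallel branch, and were measured in embryonic skin of Xenopus laevis. They were the probe sets whose single gene symbol in the platform annotation, without the homeolog suffix, was one of 10 names: nupr1, ddit4, atf4, atf5, ddit3, xbp1, asns, sesn2, herpud1 and chac1. The rule found 9 of 16745 probe sets, which stand for 7 of the 10 names. These were nupr1.L, ddit4.S, atf4.L, ddit3.L, xbp1.L, sesn2.L, sesn2.S, herpud1.L and herpud1.S, with 1 probe set each. The suffixes .L and .S mark the copies that the species inherited from its ancestral parents, and sesn2 and herpud1 were measured for both. The names atf5, asns and chac1 matched no probe set under the rule. The members were chosen with the difference between treated and control skins already known, so that difference is given as a description, with no test.

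The arrays held 2 samples labelled SP600125 and 2 labelled as untreated controls, with no vehicle named. SP600125 blocks the ATP site of the JNK family of stress-activated kinases and can also inhibit other kinases. Treated embryos were kept with it from stage 14 to stage 24, at a dose that the labels write as 100 mM, a unit the data could not check. All embryos grew at 15 °C, all skins were taken whole at stage 24, and each sample pooled 20 of them. No line, strain or clutch is named, and whether replicates came from separate clutches is not stated. The p-values therefore measure the spread among these samples alone, be it biological or technical. Values are log2 levels after robust multi-array averaging (RMA), and 1 unit is a change by a factor of 2. They are compared between arrays for 1 probe set, not between probe sets, whose brightness has no common scale.

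In animal cells several kinases that sense stress phosphorylate the initiation factor eIF2. General translation then slows while the transcription factor ATF4 is made more, from messenger RNA that is already present, so the level of atf4 transcript need not follow ATF4 activity. In mammals ATF4 induces the factor CHOP, encoded by ddit3, and genes for amino acid synthesis and transport, tRNA synthetases and stress effectors. A parallel branch that senses unfolded protein in the endoplasmic reticulum splices xbp1 messenger RNA. Several effectors, among them nupr1, ddit4 and the sestrins, have other known inducers in mammals as well, such as p53, FoxO factors, hypoxia or glucocorticoids.

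The 9 genes did not lie in one direction. The genes nupr1.L, ddit4.S, sesn2.L and sesn2.S had higher levels in both SP600125 arrays than in either control. The transcription factor genes atf4.L and xbp1.L overlapped between the groups, and ddit3.L was dim and slightly lower. The endoplasmic reticulum gene herpud1 differed more between replicate numbers than between treatments in both of its copies. Over the whole array, too, number held more of the sum of squares (62.7%) than treatment (20.8%). Of the 9 probe sets, 4 lay wholly above the controls and 1 wholly below, where 11.9% and 9.25% of all 16745 probe sets did so. The difference in log2 level, SP600125 minus control, had a median of 0.51 in the 9 members and of 0.01 in all probe sets. Leaving out control replicate 1 gave the members a median of 0.062, and leaving out SP600125 replicate 2 gave 0.20. Because members were chosen on this contrast, nothing is read from these counts.

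**Figure D1:**
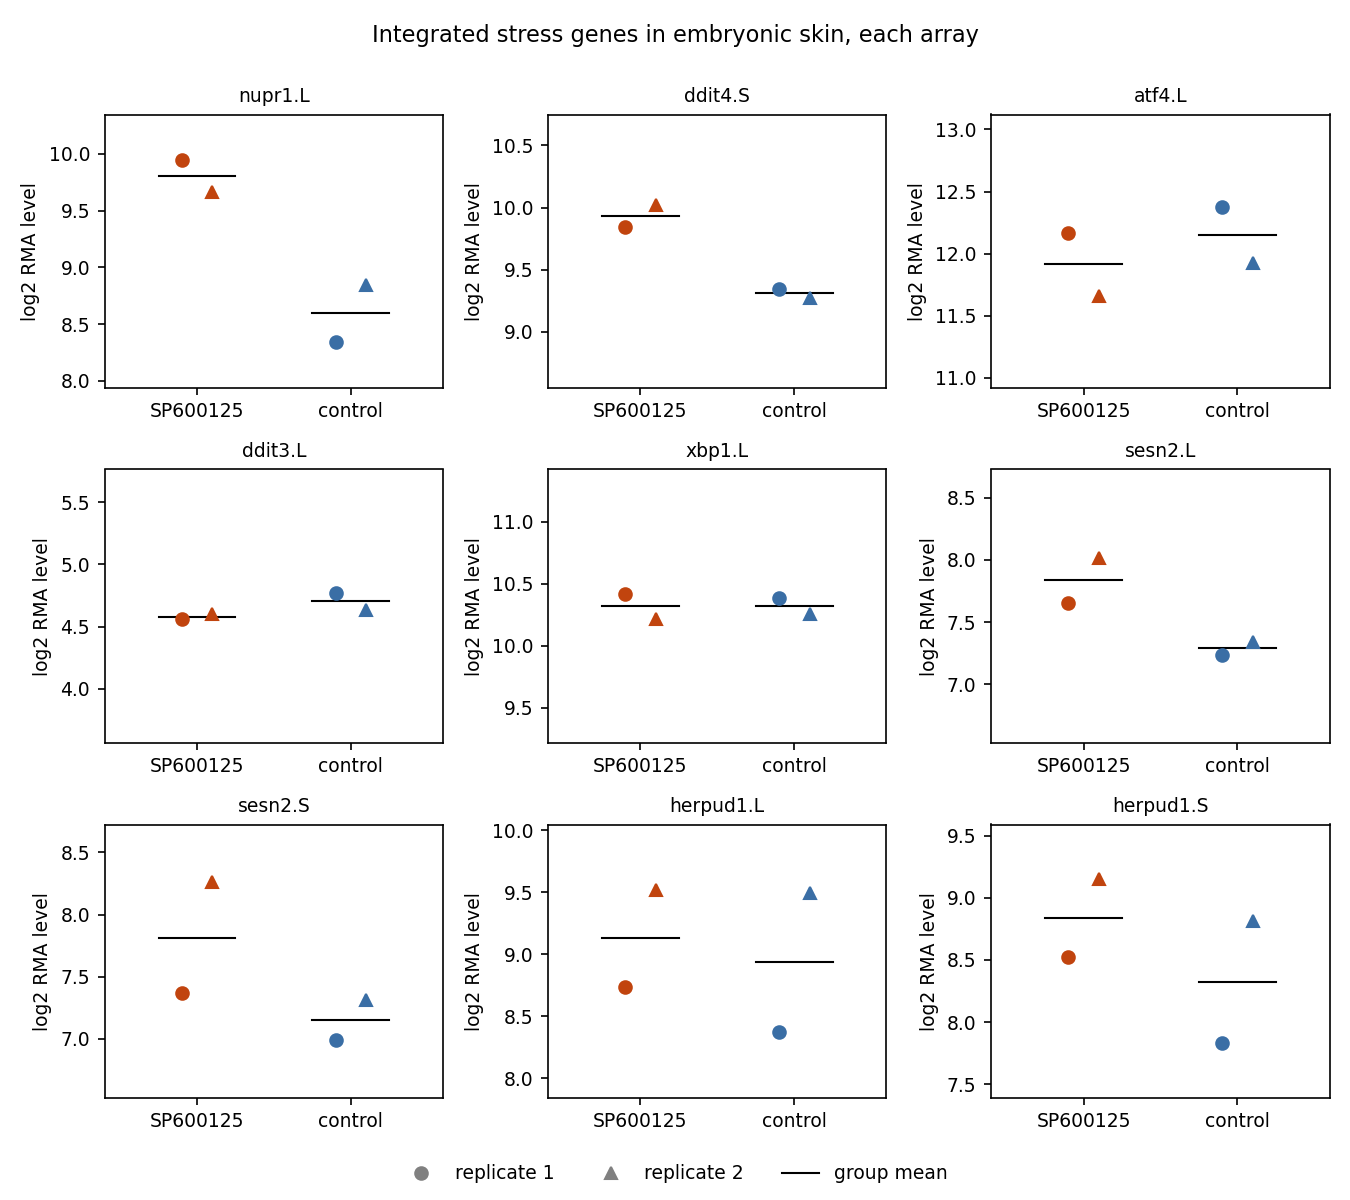
Log2 RMA level of the 9 member probe sets (vertical axes, each panel with its own range), with the SP600125 arrays left of the controls, replicate 1 as circles, replicate 2 as triangles and the group mean as a line. The points of nupr1.L, ddit4.S, sesn2.L and sesn2.S do not overlap between the groups, while those of atf4.L, xbp1.L and herpud1 do.

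The gene nupr1.L encodes a small stress-induced nuclear protein that takes part in transcription. Its probe set read 9.95 and 9.67 in the SP600125 arrays, against 8.34 and 8.85 in the controls. Both treated arrays were high, and the lower of them stood 0.82 above the higher control. The means were 9.81 ± 0.20 after SP600125 and 8.59 ± 0.36 in controls (SD, n = 2 each), a log2 difference of 1.21 ± 0.27 (SE of the limma fit) or 2.32-fold. Of all 16745 probe sets, this was the 56th highest difference. Within replicate number 1 the difference was 1.61 and within number 2 it was 0.82.

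The genes ddit4 and sesn2 both encode proteins that restrain mTORC1, the kinase complex that promotes protein synthesis and growth. For ddit4.S, also called REDD1, the levels were 9.85 and 10.02 with SP600125, against 9.34 and 9.27 in controls. The spread within each group was small beside the distance between them, and the means differed by 0.63 ± 0.20, or 1.54-fold. The difference was 0.50 within number 1 and 0.75 within number 2. The gene sesn2.L, for a sestrin that senses leucine and inhibits mTORC1 in mammals, read 7.66 and 8.02 after SP600125, against 7.24 and 7.34 in controls. Its other copy, sesn2.S, read 7.37 and 8.26 after SP600125, against 6.99 and 7.31 in controls. The groups did not overlap for either copy, but for sesn2.S the gap was only 0.06. The log2 differences were 0.55 ± 0.23 for sesn2.L and 0.66 ± 0.38 for sesn2.S, or 1.46-fold and 1.58-fold. In both copies the difference was larger within number 2, at 0.68 and 0.95, than within number 1, at 0.42 and 0.38.

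Among the transcription factor genes, none lay wholly above the controls. The level of atf4.L was 12.17 and 11.66 after SP600125, against 12.38 and 11.92 in controls. Replicate 1 was the higher array of each group, so the groups overlapped, and the means differed by −0.24 ± 0.30. Within number 1 the difference was −0.21 and within number 2 it was −0.26. It was 0.01 without SP600125 replicate 2, where the numbers are no longer balanced between the groups. The gene ddit3.L, which encodes the pro-apoptotic factor CHOP, read 4.56 and 4.60 after SP600125, against 4.77 and 4.64 in controls. Both treated arrays were lower, the nearer by only 0.04, and the probe set was the only member with a mean level under 5, where RMA compresses differences. The means differed by −0.13 ± 0.19. For xbp1.L, which encodes the spliced factor of the unfolded protein response, the levels were 10.42 and 10.22 after SP600125, against 10.38 and 10.26 in controls. The means were 10.32 ± 0.14 after SP600125 and 10.32 ± 0.09 in controls (SD, n = 2 each), a log2 difference of −0.00 ± 0.20. A probe set of this kind sums the transcripts it binds, so the splicing of xbp1 was not measured.

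The gene herpud1 encodes a membrane protein of the endoplasmic reticulum that helps to degrade misfolded proteins and is a target of both ATF6 and ATF4 in mammals. Its copy herpud1.L read 8.74 and 9.52 after SP600125, against 8.37 and 9.49 in controls. The copy herpud1.S read 8.52 and 9.15 after SP600125, against 7.83 and 8.81 in controls. In both copies replicate 2 was the high array of each group, and the groups overlapped. The log2 differences were 0.19 ± 0.51 and 0.51 ± 0.45 for herpud1.L and herpud1.S. These SE come from the fit without replicate number, so they take in the spread between the numbers. Without control replicate 1 they were −0.37 and 0.02, and without control replicate 2 they were 0.75 and 1.00. Within number 1 the differences were 0.37 and 0.69, and within number 2 they were 0.02 and 0.33.

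Replicate number was not named in the rule that chose the members, so its difference was tested. The spread between the numbers also affects whether the groups overlap, so the choice may favour members with a small difference by number. A limma fit of group and replicate number was used, and p-values were adjusted by Benjamini-Hochberg across the whole array. It called 0 probe sets (0%) at the threshold of 0.05, while 4134 (24.7%) had an unadjusted p under 0.05. Number 2 minus number 1 was 0.95 ± 0.18 for herpud1.L (adjusted p = 0.113) and 0.81 ± 0.18 for herpud1.S (adjusted p = 0.126). It was −0.48 ± 0.16 for atf4.L (adjusted p = 0.189) and 0.61 ± 0.22 for sesn2.S (adjusted p = 0.212). For nupr1.L and ddit4.S it was 0.11 ± 0.26 and 0.05 ± 0.17, with adjusted p of 0.825 and 0.875. None of the 9 members passed, and no other probe set did, since the smallest adjusted p of this limma fit was 0.110. Nothing particular to the members is read from this. The SE of the treatment differences came from a fit without replicate number. They take in the spread between the numbers and are not comparable with the SE given here. The size of the difference by number exceeded that by treatment in 4 of the 9, namely atf4.L, xbp1.L, herpud1.L and herpud1.S. The share of all probe sets in which it did so was not counted, so nothing is read from this count. Over the whole array, number held 62.7% of the sum of squares and treatment 20.8%.

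**Figure D2:**
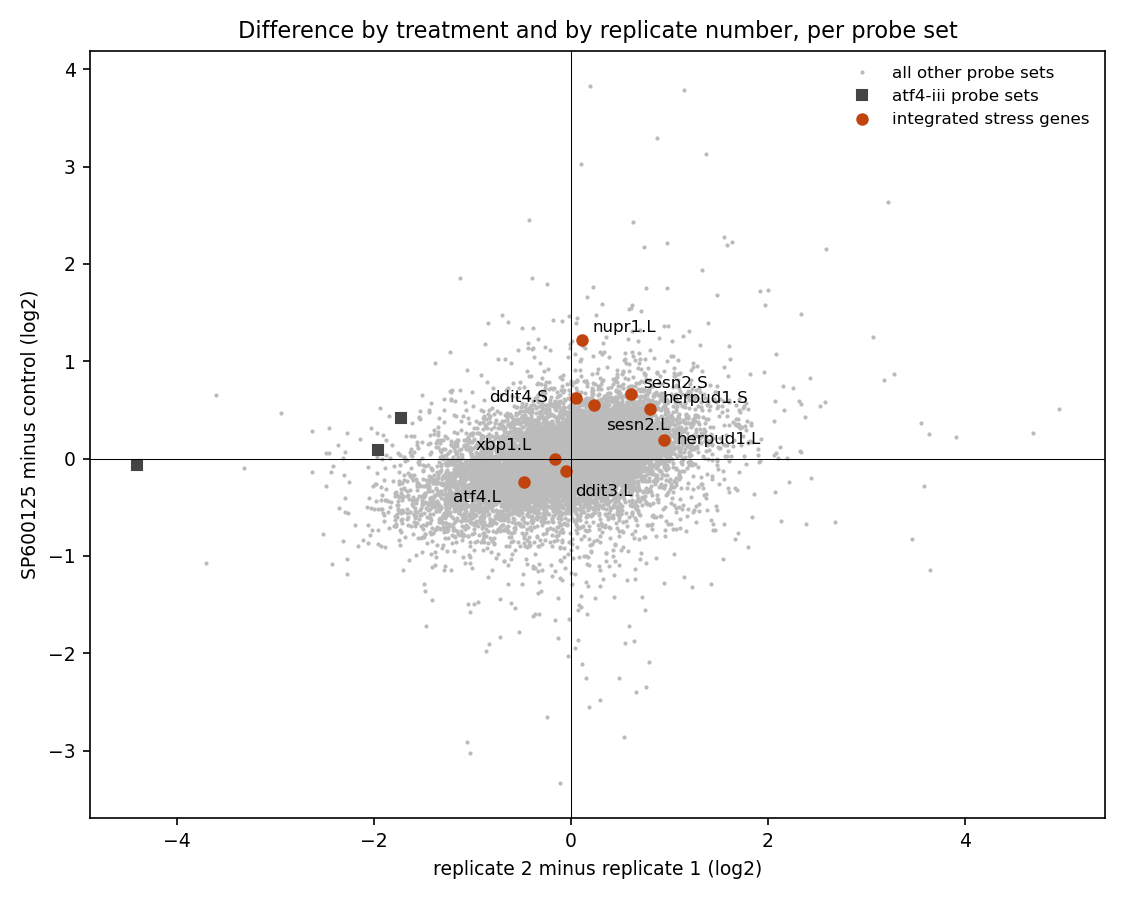
Each point is a probe set, placed by its log2 difference between replicate 2 and replicate 1 (horizontal) and between SP600125 and control (vertical). The 9 members are labelled, and nupr1.L lies at 1.21 on the vertical and 0.11 on the horizontal axis, whereas herpud1.L lies at 0.19 and 0.95. Squares mark the atf4-iii probe sets, the farthest at −4.41 on the horizontal axis.

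Differences between the replicate numbers ran through the whole series. Of the total sum of squares, 62.7% went with replicate number and 20.8% with treatment. For the 2 groups, limma with Benjamini-Hochberg adjustment let 0 probe sets pass the threshold for treatment (0%). At an unadjusted p under 0.05, 117 were higher (0.699%) and 152 lower (0.908%). The skins bore the markers of epidermis, with the keratin krt12.4.L at 13.88 and 13.92 after SP600125, against 13.76 and 13.86 in controls. Of 30 epidermal genes 19 had higher and 11 lower means, with a median difference of 0.04. Wholly above the controls lay 7 (23.3%) and wholly below 0, where 12.3% and 9.1% of all genes did so. Over all 11295 genes, with 1 probe set per gene, 6109 had higher and 5186 lower means. Markers of other tissues mostly had lower means in treated skins, although none passed the test. Of 35 muscle and somite genes 34 had lower means, and their summed linear signal was 3341 and 3905 after SP600125, against 13517 and 8194 in controls. Of 26 endoderm and notochord genes 21 had lower means, with sums of 2321 and 1953 after SP600125, against 4074 and 3229 in controls. Of 23 blood and endothelial genes 20 had lower means, with sums of 4433 and 4475 after SP600125, against 6312 and 7505 in controls. Of 30 neural and neural crest genes 22 had lower means, with sums of 7969 and 7509 after SP600125, against 12046 and 6712 in controls, so that the sums of the neural list overlapped between the groups. Each sum is led by the brightest probe sets of its list, so it does not measure the amount of a tissue. Among these were actc1.L for muscle, at 11.77 in control replicate 1, and a2m.S for endoderm, at 10.83 in the same array. Wholly below the controls lay 23 muscle and somite, 12 endoderm and notochord, 4 blood and endothelial and 4 neural genes. Wholly above lay 0, 3, 2 and 1 in the same order. Over all genes, 9.1% lay wholly below and 12.3% wholly above. The part of these tissues in the differences of the stress genes was not tested. In such bulk samples fewer cells of a type and less RNA per cell cannot be told apart.

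Probe sets close to the rule but outside it were read for atf4 and atf5. The annotation names atf4-iii for 3 probe sets, a name that the RefSeq gene table gives as a synonym of atf4.S, although the identifier attached to these probe sets was not found there. They separated the arrays by replicate number. The first read 8.89 and 4.48 after SP600125, against 8.96 and 4.55 in controls, so replicate 1 was bright and replicate 2 dim in both groups. The second read 6.50 and 4.54 after SP600125, against 5.85 and 4.36 in controls. The third read 5.68 and 3.67 after SP600125, against 5.55 and 3.63 in controls. Number 2 minus number 1 was −4.41 ± 0.16, −1.72 ± 0.20 and −1.96 ± 0.16, each with an adjusted p of 0.110 in the same limma fit, which was the smallest value of that fit. The treatment differences were −0.07, 0.41 and 0.08. The probe set of atf4.L differed by number in the same direction but only by −0.48. Another 2 probe sets carry several atf4 symbols and were not named.

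The 6 probe sets annotated atf5.2.S stand for a copy of atf5, which encodes a factor related to ATF4. The brightest read 9.25 and 9.20 after SP600125, against 9.03 and 9.51 in controls. Their treatment differences ran from −0.04 to 0.10, and 2 of the 6 had a mean level under 5. None of these 9 probe sets outside the rule had a difference with treatment as large as that of ddit4.S.

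**Figure D3:**
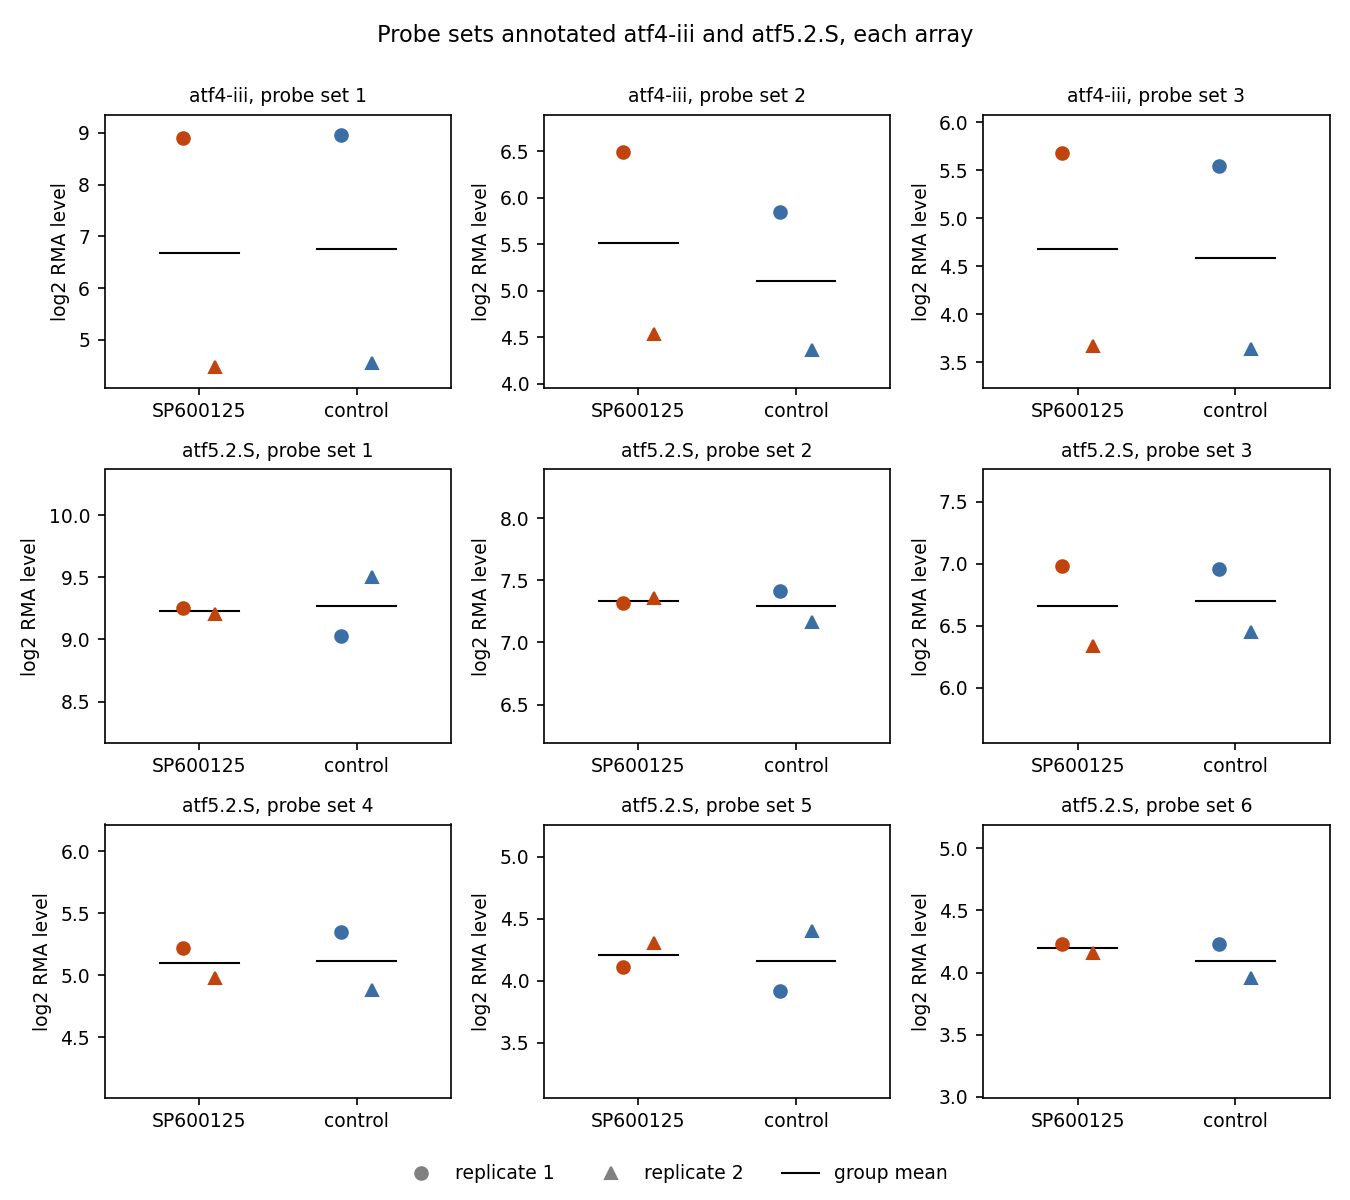
Log2 RMA level of the 3 probe sets annotated atf4-iii and the 6 annotated atf5.2.S (vertical axes, each panel with its own range), SP600125 left of control, replicate 1 as circles, replicate 2 as triangles, the group mean as a line. In the atf4-iii panels the circles lie above the triangles in both groups, from 8.89 and 8.96 down to 4.48 and 4.55 in the first.

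Other genes of the pathway were read from 5 lists, with 1 probe set per gene and each homeolog as a gene. No gene of any of the 5 lists passed limma's test at an adjusted p under 0.05 (0% of 11295 genes), where each adjusted p was 1, and 188 of all genes (1.66%) had an unadjusted p under 0.05. Among the list genes, sesn1.L and rps6.L were the 2 below that value. Over all 11295 genes, 6109 had higher and 5186 lower means. Of them, 12.3% lay wholly above and 9.1% wholly below the controls, and the median difference was 0.02. The upstream list held 18 genes, mostly for eIF2 and eIF2B subunits, eIF2 kinases and their regulators. It also counted eif2a.S (0.27 ± 0.45), for a separate initiation factor. The median difference of the 18 was −0.06, with 1 gene wholly above and 2 wholly below the controls. It turned to 0.15 when SP600125 replicate 1 was left out. The smallest unadjusted p belonged to gcn1.L (−0.44 ± 0.23), an activator of the eIF2 kinase GCN2, eif2b4.L (−0.50 ± 0.40), a subunit of the exchange factor eIF2B, and eif2ak1.L (−0.33 ± 0.31), the eIF2 kinase HRI. The groups overlapped for eif2b4.L and eif2ak1.L, and eif2ak1.L was dim, with a mean level of 4.85. The kinase gene eif2ak3.S, for PERK, was also dim and differed by 0.04 ± 0.24. The phosphatase subunit gene ppp1r15b.L differed by 0.04 as well.

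The genes known in mammals as ATF4 or CHOP targets lay in both directions. Of 27 measured, 13 had higher and 14 lower means, with a median difference of −0.00. Wholly above the controls lay 3 and wholly below 4, where 12.3% and 9.1% of all genes did so. Leaving out control replicate 2 gave a median of −0.15. The arginine and lysine transporter slc7a3.L read 8.73 and 8.98 after SP600125, against 9.26 and 9.49 in controls. The mitochondrial serine hydroxymethyltransferase shmt2.L read 8.16 and 8.19 after SP600125, against 8.81 and 8.46 in controls. For psat1.L, an enzyme of serine synthesis, the levels were 5.03 and 5.41 after SP600125, against 6.74 and 5.503 in controls. These 3 genes had the smallest unadjusted p of the list, and all 3 lay below the controls. Their differences were −0.52 ± 0.22, −0.46 ± 0.22 and −0.90 ± 0.49. This order came from the fit without replicate number. Within numbers 1 and 2, slc7a3.L differed by −0.52 and −0.51, shmt2.L by −0.65 and −0.28, and psat1.L by −1.71 and −0.09. Among genes whose groups overlapped, gadd45a.S differed by 0.48 and 0.52 within the numbers, and slc1a5.S by −0.37 and −0.54. Both were named after their values were seen. The genes wholly above the controls were slc3a2.L (0.64 ± 0.37) and slc3a2.S (0.26 ± 0.21), for the heavy chain shared by several amino acid transporters, and the bZIP factor atf3.L (0.26). They were named after their values were seen.

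The 23 genes for cytosolic tRNA synthetases, which load amino acids onto tRNA, had a median difference of −0.21. Of these, 17 had lower means, as did 5186 of all 11295 genes. Wholly below the controls lay 4 and wholly above 0, where 9.1% and 12.3% of all genes did so. The smallest unadjusted p belonged to the threonyl enzyme tars1.L (−0.36 ± 0.22), the leucyl enzyme lars1.L (−0.29 ± 0.19) and the phenylalanyl subunit farsa.S (−0.36 ± 0.25). Without SP600125 replicate 1 the median was −0.01. Among 31 genes for sensors of the unfolded protein response, their targets and degradation at the endoplasmic reticulum, 18 had higher and 13 lower means, with a median of 0.02. There 6 lay wholly above and 2 wholly below the controls, where 12.3% and 9.1% of all genes did so. The median was −0.039 when control replicate 1 was left out and 0.14 when control replicate 2 was. The smallest unadjusted p belonged to herpud2.L (−0.33 ± 0.19), sdf2l1.L (0.29 ± 0.21) and ubxn4.S (0.27 ± 0.23). The first is the paralog of herpud1, the second encodes an endoplasmic reticulum protein induced by stress and the third a membrane protein of the degradation machinery. The other copy sdf2l1.S overlapped between the groups and differed by 0.07 ± 0.57.

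**Figure D4:**
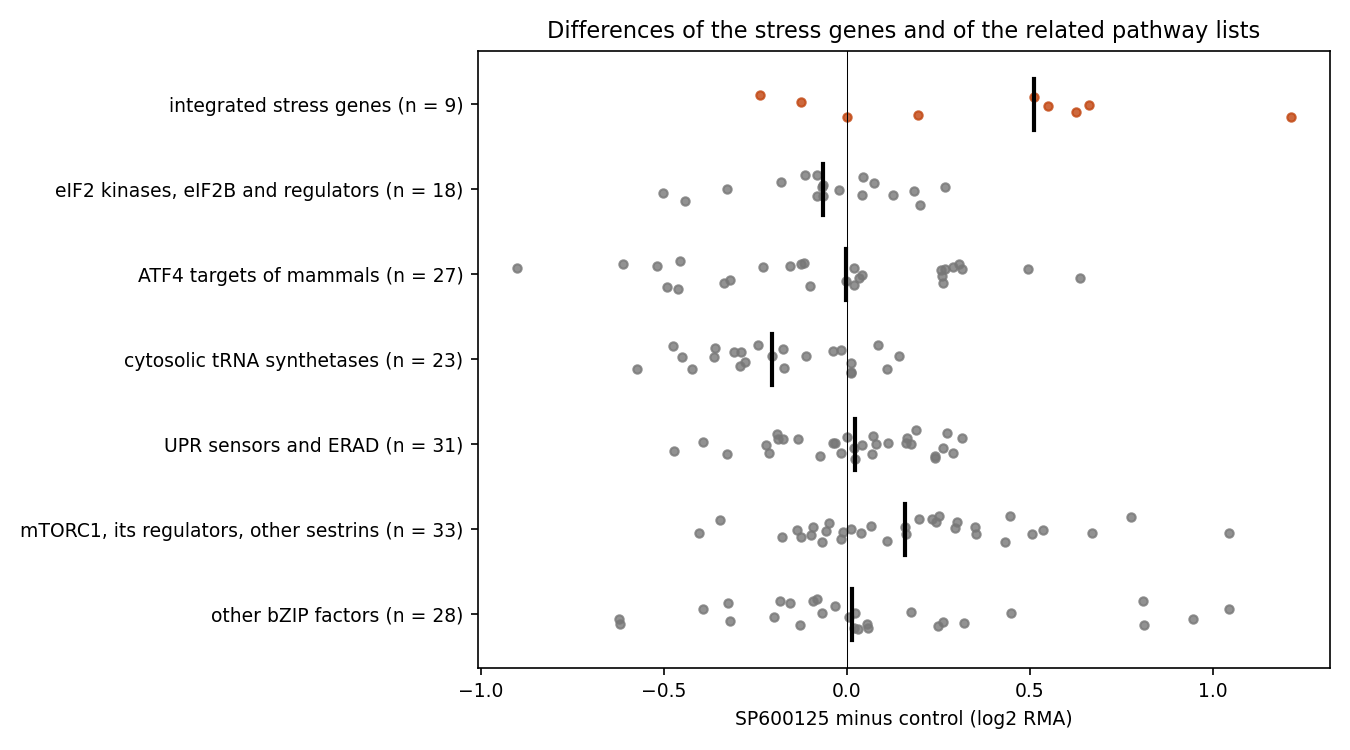
Log2 difference, SP600125 minus control, of the 9 members and of the genes of each pathway list (points, spread vertically at random within a row), with the median as a bar. The members run from −0.24 to 1.21, with 3 points below 0, and the medians of the eIF2 list, the ATF4 target list and the tRNA synthetase list are −0.06, −0.00 and −0.21.

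The list of mTORC1, its regulators and its targets, the pathway that the products of ddit4 and sesn2 restrain, held 33 genes with a median difference of 0.16. It mixes genes whose products restrain mTORC1 with others, so the median gives no direction for the pathway. Of the 33 genes, 21 had higher and 12 lower means. Wholly above the controls lay 5, with sesn1.L and sesn3.L among them, and wholly below 2. Of all genes, 12.3% and 9.1% did so. The median was 0.093 or 0.086 when SP600125 replicate 1 or 2 was left out. The smallest unadjusted p belonged to sesn1.L (1.04 ± 0.37), rps6.L (0.67 ± 0.24), a ribosomal protein that the pathway phosphorylates, and lamtor3.L (0.78 ± 0.39), part of the lysosomal anchor of mTORC1. The kinase gene rps6kb1.L, which acts below mTORC1, lay wholly below the controls at 9.56 and 9.25 after SP600125, against 9.94 and 9.68 in controls. Its other copy, rps6kb1.S, overlapped between the groups, at 9.36 and 9.12 after SP600125, against 9.42 and 9.32 in controls. The difference of rps6kb1.S was −0.13 ± 0.21.

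The sestrin family was then read in full, a step taken after the values of sesn1.L were seen. The family held 7 probe sets of 4 genes, and in all 7 both SP600125 arrays lay above both controls, as in 11.9% of all probe sets. Of the 7, the 2 of sesn2 are members that were chosen on this contrast. The first probe set of sesn1.L, a sestrin under the control of p53 and FoxO in mammals, read 7.36 and 6.69 after SP600125, against 5.68 and 6.29 in controls. The second probe set of sesn1.L read 6.94 and 7.11 after SP600125, against 5.13 and 5.40 in controls. That second probe set had the largest difference of the family, 1.76 ± 0.22 or 3.38-fold, with little spread within either group. The brightest probe set of sesn3.L, a FoxO-dependent sestrin in mammals, read 7.21 and 6.48 after SP600125, against 6.23 and 6.45 in controls. The other 2 probe sets of sesn3.L differed by 0.21 ± 0.21 and 0.42 ± 0.27. In all 3 of sesn3.L the higher control came close to the lower treated array. Because this family was singled out after its values were seen, its count supports no call.

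**Figure D5:**
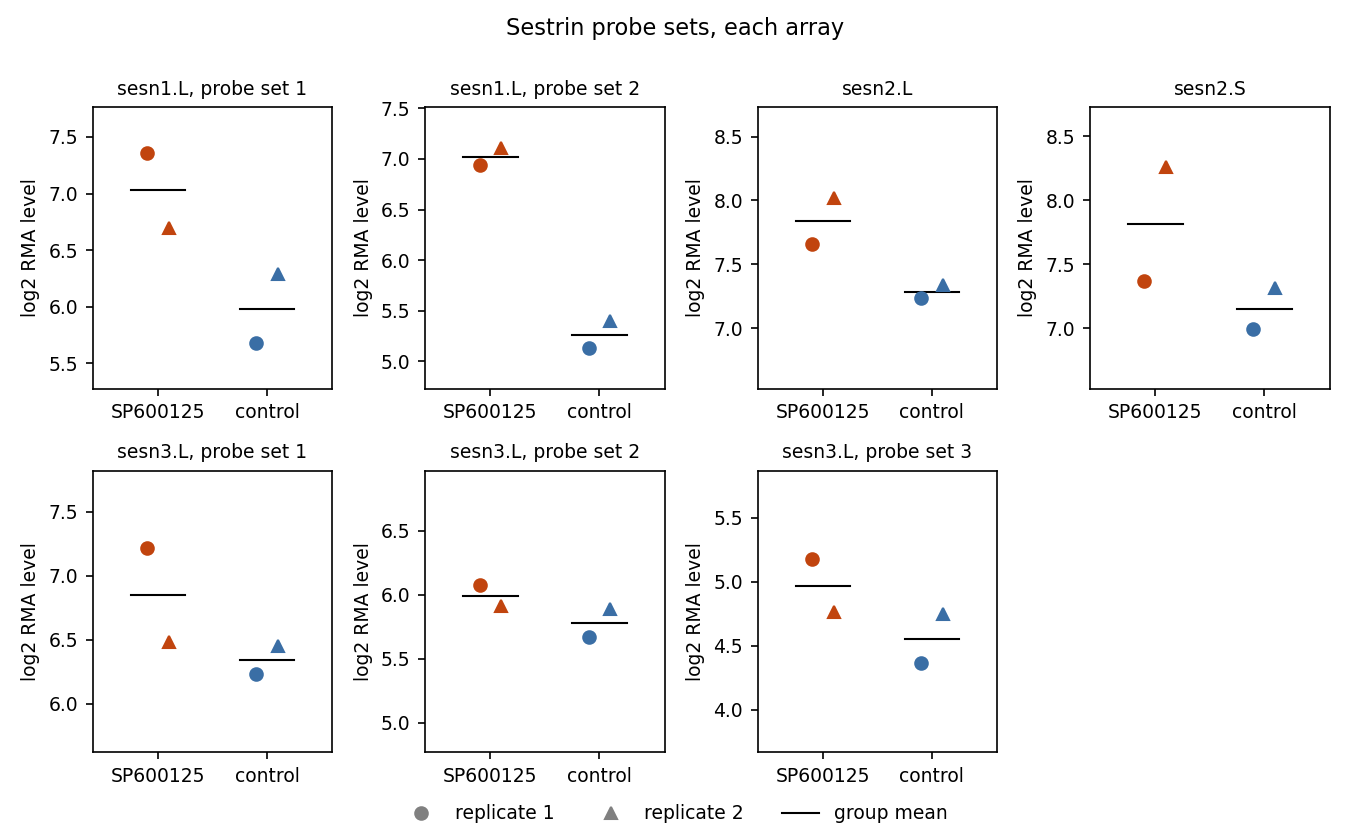
Log2 RMA level of the 7 sestrin probe sets (vertical axes, each panel with its own range), SP600125 left of control, replicate 1 as circles, replicate 2 as triangles, the group mean as a line. The treated points lie above the control points in every panel, and the gap is widest for the second probe set of sesn1.L, at 6.94 and 7.11 against 5.13 and 5.40.

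The patterns most like that of nupr1.L over the 4 arrays were found by the root mean square difference between probe sets, each centred on its own mean. The 5 nearest that were no members were pmp2.L (0.104), rgs2.L (0.115), ap4m1.S (0.119), casp10.L (0.130) and sesn1.L (0.166, its first probe set), all in log2 units. Their products are a lipid-binding protein, a regulator of G protein signalling, an adaptor subunit of vesicle transport, an initiator caspase and the sestrin described above. Another probe set of ap4m1.S also lay above both controls, but with SP600125 replicate 2 highest. It read 6.89 and 7.46 after SP600125, against 6.79 and 6.80 in controls, a difference of 0.38 ± 0.27. For rgs2.L the levels were 9.52 and 9.31 after SP600125, against 8.21 and 8.60 in controls, and for pmp2.L they were 7.15 and 6.93 after SP600125, against 5.81 and 6.23 in controls. Both repeat the order of arrays seen in nupr1.L, with SP600125 replicate 1 highest and control replicate 1 lowest. Their choice by distance over the same 4 arrays made this likely, so it adds no evidence. The other copies pmp2.S, rgs2.S and casp10.S also lay wholly above the controls. The order of arrays returned in rgs2.S (1.55 ± 0.57) but not in pmp2.S or casp10.S (0.72 ± 0.21), where control replicate 2 was lowest. For pmp2.S the levels were 7.39 and 7.08 after SP600125, against 6.23 and 5.55 in controls. Of the members, ddit4.S lay nearest to nupr1.L at 0.393, and sesn2.L followed at 0.427. Among all probe sets these distances ranked only 242nd and 388th. The other members ranked from 1139th, for sesn2.S, to 13022nd, for atf4.L. The distances rest on 4 arrays and are a description.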

How the data were processed

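Total RNA of Xenopus laevis embryonic skins was measured on Affymetrix arrays. The deposited log2 values, 1 per probe set and array, were made with affy and RMA, per the submitters' processing notes, which name no version. RMA equalises the arrays' distributions, so a shift shared by most transcripts cannot be seen. Of 16755 probe sets, 10 controls were left out. Names came from GEO's platform annotation, where 15445 probe sets had 1 symbol, 279 several and 1021 none, and all 9 members' identifiers were found in the RefSeq gene table. The number of arrays limits precision.

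Groups came from the sample titles. limma 3.58.1 in R 4.3.3 (lmFit, eBayes, constant prior variance, two-sided) was run on all probe sets with Benjamini-Hochberg adjustment. A check on simulated data had no difference by replicate number, so it bears on the code and not on the count of 0 calls. In lists a gene was its probe set with the highest mean. The members and lists were chosen with earlier results of these data known. Beyond the members, the rule named 3 genes per list by smallest unadjusted p of the fit without replicate number, and the 5 patterns nearest to nupr1.L. eif2a.S, eif2ak3.S, ppp1r15b.L, rps6kb1.L, rps6kb1.S, cebpz.L, cebpz.S, krt12.4.L, other copies of named genes and the genes said to be chosen later were named besides. Figures used matplotlib 3.10.9. Alternatives were renewed cyclic loess or quantile normalization, dim probe sets left out, each array left out, the replicate number as a block, eBayes with trend and robust, an adjusted p under 0.1 and averaging the probe sets of a gene.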

Additional observations from a re-analysis of the deposited data

How the results depend on the processing

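The count of 0 probe sets called for treatment stayed at 0 in all 10 alternatives, including the fit with the replicate number as a block (0 called) and each array left out. The labels do not say that a shared number marks a shared clutch, and deviations of arrays with the same number correlated at 0.585 over probe sets. For replicate number, trend and robust fitting called 3 probe sets in place of 0, for atf4-iii, prss3.S and akr1c8p.S. When single arrays were left out, the number of probe sets with groups that did not overlap was 8462 to 11754 instead of 3545, since fewer arrays have to separate. The median over the 9 members was 0.0622 to 0.71, lowest without control replicate 1. The other list medians in those runs were −0.18 to 0.15 for the eIF2 list, −0.15 to 0.04998 for ATF4 targets, −0.21 to −0.0116 for tRNA synthetases, −0.0391 to 0.14 for the unfolded protein list, 0.09 to 0.23 for mTORC1 and −0.0757 to 0.26 for other bZIP factors. Of single members, nupr1.L ran from 0.96 to 1.47, ddit4.S from 0.54 to 0.71, sesn2.L from 0.37 to 0.73 and sesn2.S from 0.22 to 1.11 and kept their sign, as did ddit3.L and herpud1.S, whereas atf4.L, xbp1.L and herpud1.L did not. Within numbers 1 and 2 the difference kept its sign for atf4.L (−0.21 and −0.26) and herpud1.L (0.37 and 0.02). For xbp1.L it did not (0.04 and −0.04). With 1 array left out the replicate numbers are no longer balanced between the groups. The cause of moves in such runs was not tested. Renewed normalization, the removal of dim probe sets and averaging over probe sets moved no median by more than its spread between replicates.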

Other observations

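Other bZIP transcription factors, the protein family of ATF4, ATF5 and CHOP, were read as a sixth list. The list also counted cebpz.L and cebpz.S, whose product is not a bZIP factor despite the gene's name. Of 28 genes 15 had higher and 13 lower means, with a median log2 difference of 0.01, and 3 lay wholly above and 3 wholly below the controls, where 12.3% and 9.1% of all genes did so. None passed limma's test, each with an adjusted p of 1. The smallest unadjusted p belonged to nfil3.L, a repressor linked to the circadian clock, which read 8.26 and 8.48 after SP600125, against 7.05 and 7.61 in controls. It was followed by nfe2l2.S, which encodes the oxidative stress factor NRF2 and read 6.62 and 6.49 after SP600125, against 5.17 and 6.05 in controls. For its other copy, nfe2l2.L, the groups overlapped, at 8.61 and 9.57 after SP600125, against 7.67 and 8.89 in controls. The third was cebpa.S, for a C/EBP factor, at −0.62 ± 0.41. The immediate early gene fos.S read 7.74 and 6.56 after SP600125, against 6.08 and 8.86 in controls, so its control arrays lay on both sides of the treated ones. It was named after its values were seen.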
